A study of Mus musculus with 4 samples.

Results

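The hair shaft and root sheath genes of mouse skin are the keratins that build the shaft and the inner root sheath, with 7 further proteins made in the same layers. They were chosen by name from a list of 31 genes, of which 30 were found in the deposited table of 47725 identifiers and 1 is not analysed here. All 30 passed the filter on low counts and stand among the 17440 genes tested. They comprise 9 cortex keratins, 5 cuticle and other hair keratins, 8 inner root sheath keratins, the companion layer keratin Krt75 and 7 proteins that are no keratin.

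Skin from C57BL/6J mice aged 17 weeks was pulverized whole and its poly(A) RNA sequenced. The conditional knockout, labelled cKO, is paired in the series title with K5, taken to mean the keratin 5 promoter, which is active in basal epidermis and the outer root sheath; the labels name no Cre line. The control, labelled PP6fl/fl, carries floxed alleles of Ppp6c, the catalytic subunit gene of protein phosphatase 6, as by the series title the cKO does too. Each genotype had 2 libraries, numbered 2 and 3, and nothing says that they came from separate animals, so p-values measure the spread between libraries, which may be technical. Deposited counts summed to 15837136 and 17459413 in cKO replicates 2 and 3, and to 23407731 and 22334208 in control replicates 2 and 3. Ppp6c stood at 62.1 and 50.1 CPM (counts scaled to a common library size) in cKO, against 57.8 and 61.8 CPM in control (log2 fold change -0.09 ± 0.16, SE). It did not pass, with an adjusted p of 0.81 in edgeR quasi-likelihood. Counts summed over all exons and all skin cells cannot check a deletion in the keratin 5 lineage, so the genotype rests on the titles. Krt5 and Krt14, keratins of basal skin cells, were abundant in all 4 libraries, from 3164 to 5290 CPM and from 3007 to 11502 CPM.

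A growing (anagen) hair follicle makes concentric layers from matrix cells at its base. The medulla, cortex and cuticle form the shaft, the inner root sheath moulds it, and a companion layer separates that sheath from the outer root sheath. The layers fill their cells with keratins, in which an acidic type I protein pairs with a basic type II protein. Resting follicles make little of these keratins. In whole skin, fewer cells of a layer and less RNA per cell cannot be told apart.

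The type I genes lie together on chromosome 11 and the type II genes on chromosome 15. Proximal promoters are shown because many of the keratins share a TATA box at one place. Whether it has a part in their levels was not tested. RefSeq promoters (GRCm38.p6, 250 bases before to 50 after the start site) were matched by symbol for 23 of the 30 genes. Promoters on 1 chromosome and those of incomplete length were left out, also from the counts over all promoters. No type II cortex keratin was matched. The letters TATAAA on the coding strand began 20 to 40 bases before the start site in 9 of 17 keratin promoters (52.9%), in 1 of 10 promoters of the other genes and in 1.99% of all 32851 promoters. The 9 windows run 60 bases, 5′ to 3′, to 10 bases past the start site, with TATAAA in capitals.
Krt25 (inner root sheath, chr11:99322942-99323001, minus strand): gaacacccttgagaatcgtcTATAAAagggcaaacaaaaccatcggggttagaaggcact
Krt26 (inner root sheath, chr11:99337956-99338015, minus strand): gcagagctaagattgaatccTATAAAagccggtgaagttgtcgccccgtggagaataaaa
Krt28 (inner root sheath, chr11:99374894-99374953, minus strand): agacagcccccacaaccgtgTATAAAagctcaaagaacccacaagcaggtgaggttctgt
Krt71 (inner root sheath, chr15:101743088-101743147, minus strand): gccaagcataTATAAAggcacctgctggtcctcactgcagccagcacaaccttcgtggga
Krt73 (inner root sheath, chr15:101802351-101802410, minus strand): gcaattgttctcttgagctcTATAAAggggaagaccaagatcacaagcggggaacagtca
Krt31 (cortex, chr11:100050542-100050601, minus strand): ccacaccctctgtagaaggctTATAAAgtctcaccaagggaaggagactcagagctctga
Krt34 (cortex, chr11:100041545-100041604, minus strand): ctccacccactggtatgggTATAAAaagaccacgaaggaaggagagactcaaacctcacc
Krt32 (cuticle, chr11:100088260-100088319, minus strand): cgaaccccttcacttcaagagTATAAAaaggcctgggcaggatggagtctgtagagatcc
Krt40 (cuticle, chr11:99543211-99543270, minus strand): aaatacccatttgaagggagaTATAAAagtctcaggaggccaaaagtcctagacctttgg

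Krt27 and Krt33b held the same 6 letters outside that stretch, and Krt36, Krt39, Krt72, Krt75, Krt82 and Krt84 held none in the window. The letters TTTAT or TTAAT, the core of the motif of the hair regulator HOXC13, stood on either strand of 16 of 17 keratin promoters and of 50.8% of all promoters. TTTAT on the minus strand overlaps TATAAA, and without such overlaps the counts were 15 of 17 keratin promoters and 48.2% of all. CTTTGA or CTTTGT, the core of the LEF1 motif, stood on either strand of 41.2% of the keratin promoters and 31.2% of all. GACGC, the core of the FOXN1 motif, stood on either strand of 11.8% of the keratin promoters and 27.2% of all. A match is a description and not a bound site.

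All 30 genes had a log2 fold change of cKO over control above 0, against 49.9% of all tested genes, and within each genotype all were higher in the library numbered 2. In 23 of the 30 both cKO libraries lay above both control libraries, against 25.1% of all tested genes. Summed over the genes, 11543 CPM (scaled by TMM, edgeR's trimmed mean of M-values) were found in cKO replicate 2 and 3276 in cKO replicate 3, against 2231 in control replicate 2 and 377 in control replicate 3. The sum was thus highest in cKO replicate 2 and lowest in control replicate 3. The median log2 fold change of cKO over control was 2.58 over the 30 genes and -0.0014 over all tested genes, and the 30 values ran from 0.78 for Krt75 to 3.50 for Vsig8. None of the 30 passed the edgeR quasi-likelihood test after adjustment over all tested genes, where 0.74% of genes were called higher in cKO. At an unadjusted p under 0.05, 13 of the 30 were higher in cKO, against 10.3% of all tested genes. DESeq2 called 15 (6.44% of its genes), the edgeR exact test 12 (5.64%) and limma voom 0 (0.757%), all higher. With the replicate number taken as a term, edgeR quasi-likelihood called 26 (4.11%), all higher. The labels do not say that equal numbers pair the libraries. The members' median was 4.36 without control replicate 2, 1.81 without control replicate 3, 1.38 without cKO replicate 2 and 3.25 without cKO replicate 3.

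**Figure D1:**
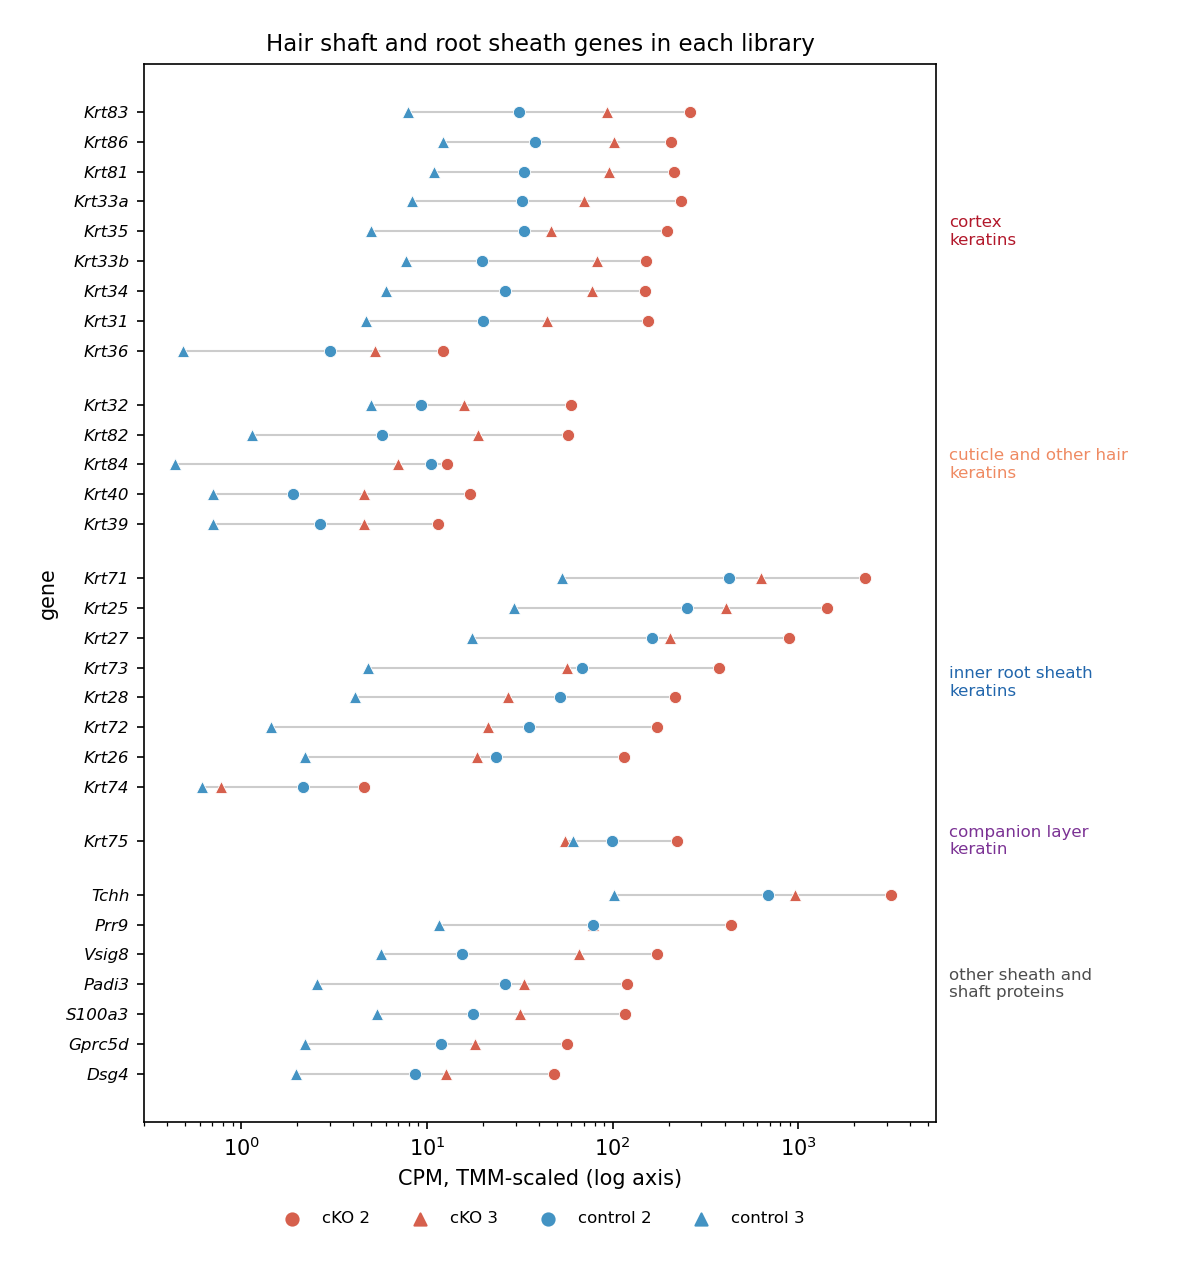
TMM-scaled CPM (log axis) of each of the 30 genes in the 4 libraries, grouped by follicle layer; circles are replicate 2, triangles replicate 3, and the grey line spans the 4 values. The cKO replicate 2 point is the highest in all 30 rows, and cKO replicate 3 lies right of control replicate 2 in 23 of them.

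Genotype and number can be set side by side, since each genotype has a library of each number. Replicate 2 exceeded replicate 3 in both genotypes for 30 of 30 genes, as it did for 34.8% of all tested genes. The excess was at least 2-fold in both genotypes for 25 of the 30 genes and for 1.49% of all tested genes. The median log2 ratio of replicate 2 over replicate 3 was 1.83 in cKO and 2.17 in control, and over all tested genes 0.028 and -0.00043. With the number held, cKO exceeded control within both numbers for 29 of 30 genes and for 35.2% of all tested genes, Krt75 being the exception. The median log2 ratio of cKO over control was 2.46 between the replicate 2 libraries and 3.19 between the replicate 3 libraries. There is 1 library per genotype and number, so these ratios have no test.

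**Figure D2:**
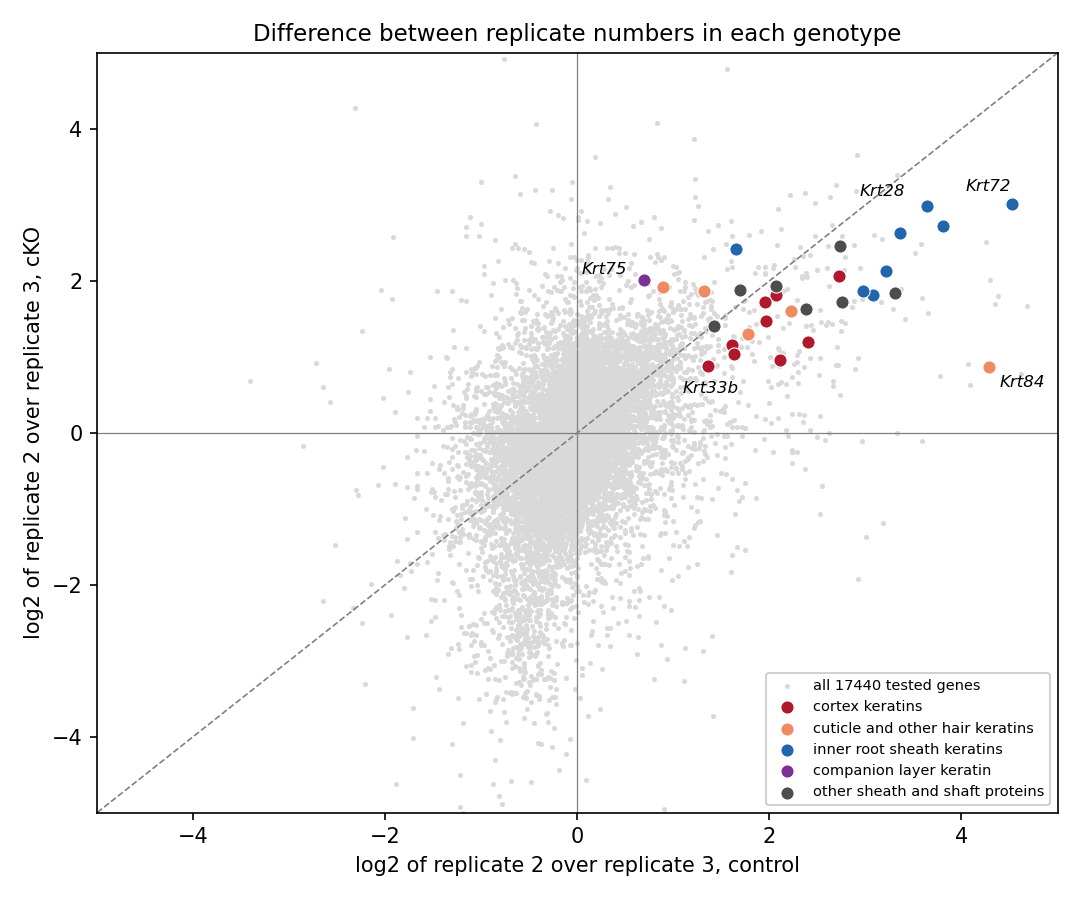
Log2 ratio of replicate 2 over replicate 3 in cKO (vertical) against the same ratio in control (horizontal), for the 30 genes in colour and all tested genes in grey; 24 grey genes lie beyond the axes, which end at 5. All 30 genes sit in the upper right, above 0 on both axes, with the inner root sheath keratins Krt28 and Krt72 farthest out among those high in both directions.

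**Figure D3:**
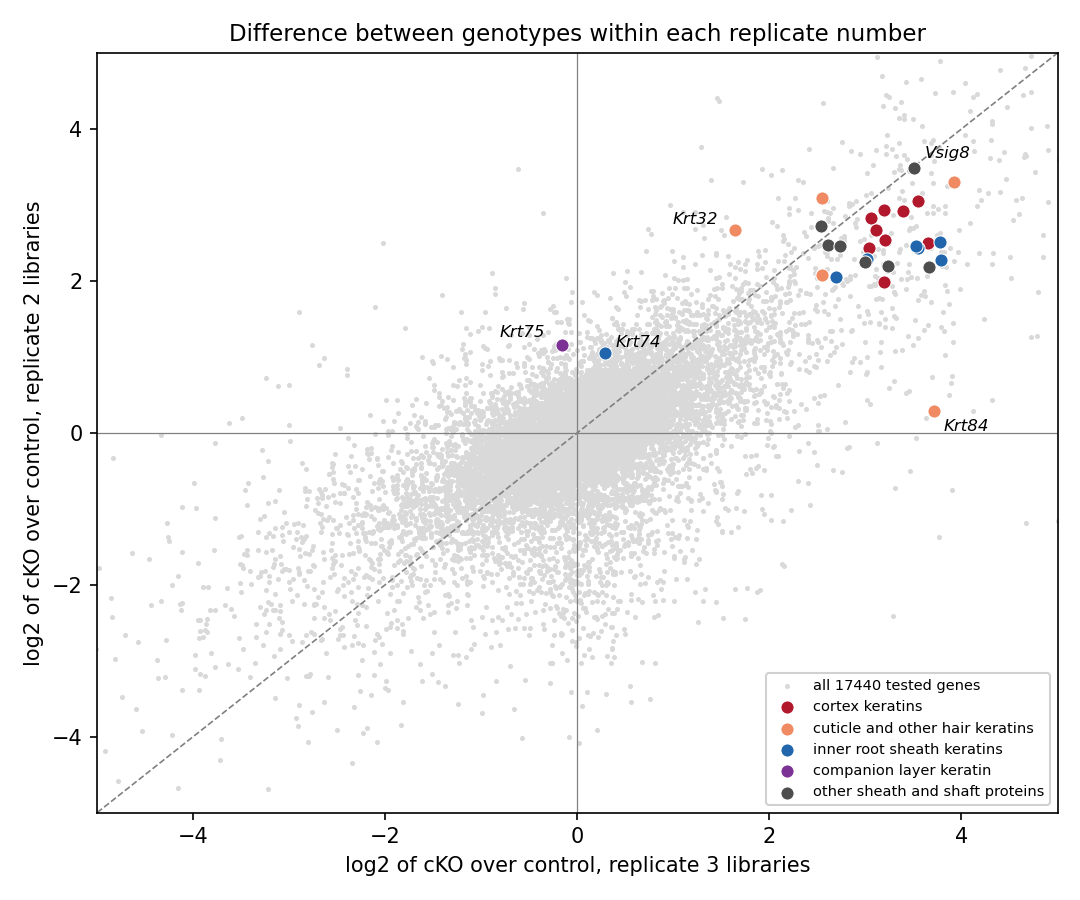
Log2 ratio of cKO over control between the replicate 2 libraries (vertical) and between the replicate 3 libraries (horizontal), for the 30 genes in colour and all tested genes in grey; 150 grey genes lie beyond the axes, which end at 5. Most of the 30 lie between 2 and 4 on both axes, while Krt75, Krt74 and Krt84 stand apart.

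The cortex keratins fill the spindle cells that make up most of the shaft; their places are best known from human follicles. All 9 had both cKO libraries above both control libraries, against 25.1% of all tested genes. Krt33b, a type I cortex keratin, had 151 and 81.9 CPM in cKO replicates 2 and 3, against 19.9 and 7.71 CPM in control replicates 2 and 3. Its groups did not overlap, and it had the smallest adjusted p of the 30 genes (log2 fold change 3.08 ± 0.58, SE, with n = 2 libraries each; edgeR quasi-likelihood adjusted p = 0.0879). Krt83, a type II cortex keratin, stood at 260.0 and 93.6 CPM in cKO and at 31.2 and 7.93 CPM in control. Its fold change was the largest of the cortex group, at 3.17 ± 0.87 on the log2 scale (edgeR quasi-likelihood adjusted p = 0.15).

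Krt31, the type I keratin of the mid cortex in human hair, had 155 and 44.0 CPM in cKO, against 20.2 and 4.71 CPM in control. Its lower cKO library was 2.19 times the higher control library. Krt35 is a keratin of the matrix and lower cortex in human hair, among the earliest that the forming shaft makes. It had 195 and 46.7 CPM in cKO, against 33.4 and 4.98 CPM in control, and there the gap was 1.40 times. Over the 9 cortex keratins the log2 fold changes ran from 2.31 for Krt36 to 3.17 for Krt83, with a median of 2.80. Split into genotype, number and their interaction, the squared spread of the 4 log2 values was for 77.9% genotype and for 21.3% number in the median cortex keratin. Over all tested genes the medians of these shares were 48.4% and 26.9%.

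Reads can be shared among near-identical cortex keratins. In GENCODE M21 transcripts, 43.5% of the 50-base words of Krt81, 43.3% of those of Krt86 and 36.9% of those of Krt83 occur in a transcript of another gene. Krt83 shared most, 19.9% of its words, with Gm49425, which is not among the listed genes. For Krt31, Krt33a, Krt33b and Krt34 the share with any other gene ran from 21.9% to 33.1%. Values of single genes within these sets are therefore uncertain, while Krt82, Krt32 and Krt40 of the next group share 0% of such words.

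The cuticle keratins belong to the overlapping scales on the outside of the shaft. Krt82, a type II keratin of the human hair cuticle, had 57.6 and 18.8 CPM in cKO, against 5.73 and 1.15 CPM in control. The groups did not overlap, and its log2 fold change of 3.47 ± 0.97 was the largest of the keratins (edgeR quasi-likelihood adjusted p = 0.157). Krt32, its type I counterpart in the human cuticle, had 60.0 and 15.8 CPM in cKO, against 9.35 and 4.98 CPM in control (log2 fold change 2.40 ± 0.74). Krt40 and Krt39, also cuticle keratins in human hair, had log2 fold changes of 3.04 ± 0.86 and 2.25 ± 0.81. For both, each cKO library lay above each control library.

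Krt84 had the smallest fold change of this group. This hair-type keratin is known in human from the filiform papillae of the tongue. It had 12.9 and 6.98 CPM in cKO, against 10.5 and 0.44 CPM in control. The groups overlapped, and only control replicate 3, with 10 reads, was far below the rest. Its log2 fold change was 0.86 ± 1.30 (edgeR quasi-likelihood adjusted p = 0.771), and without control replicate 3 it was -0.070.

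Summed over genes, the inner root sheath keratins had the highest levels per length of the groups, mainly from Krt71, Krt25 and Krt27. Krt26, Krt28, Krt72, Krt73 and Krt74 lay below the cortex keratin Krt33b per length in cKO replicate 3. The median gap between the numbers was the widest of the groups in both genotypes. Krt71, the type II keratin found throughout the sheath and mutated in Caracul mice, had 2273 and 625 CPM in cKO, against 420.3 and 53.3 CPM in control. Its type I counterpart Krt25, mutated in Rex mice, had 1433 and 406 CPM in cKO, against 250.5 and 29.6 CPM in control. In both genes cKO replicate 3 lay above control replicate 2, by 1.49 times for Krt71 and 1.62 times for Krt25. Their log2 fold changes were 2.61 ± 1.18 and 2.71 ± 1.20, with an adjusted p of 0.319 and 0.311 in edgeR quasi-likelihood.

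Krt72, Krt73 and Krt26 are keratins of the sheath cuticle in human follicles, the innermost sheath layer that interlocks with the shaft. Krt72 had 174 and 21.4 CPM in cKO, against 35.7 and 1.45 CPM in control. Krt73 had 375 and 56.5 CPM in cKO, against 68.3 and 4.80 CPM in control. In Krt72, Krt73, Krt26 and Krt28 control replicate 2 exceeded cKO replicate 3, so the genotypes overlapped, although cKO was higher within each number.

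Over the 8 inner root sheath keratins the median log2 fold change was 2.48, and the median log2 ratio of replicate 2 over replicate 3 was 2.52 in cKO and 3.29 in control. For the cortex keratins these ratios were 1.20 and 1.96. Both cKO libraries lay above both control libraries in 3 of the 8 sheath keratins, Krt25, Krt27 and Krt71, a share near the 25.1% of all tested genes. In the median sheath keratin, number took 54.5% of the squared spread and genotype 44.3%. The difference between the layers was not tested, since the genes come from the same 4 libraries. Krt74, a keratin of the Huxley layer in human follicles, was scarce, with 4.58 and 0.78 CPM in cKO and 2.16 and 0.62 CPM in control. These values rest on 72, 13, 52 and 14 reads, and its log2 fold change was 0.94 ± 1.03 (edgeR quasi-likelihood adjusted p = 0.68).

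Krt75, the type II keratin of the companion layer, was high in 1 library. It had 222 and 55.1 CPM in cKO, against 99.6 and 61.3 CPM in control. Only cKO replicate 2 stood high, and between the replicate 3 libraries the log2 ratio of cKO over control was -0.15. Its log2 fold change was 0.78 ± 0.70 (edgeR quasi-likelihood adjusted p = 0.604), and -0.55 without cKO replicate 2. In control the log2 ratio of replicate 2 over replicate 3 was 0.70, the lowest of the 30 genes.

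Summed over genes, type I and type II keratins kept nearly the same proportion while their level ranged widely. The sheath sums came mainly from Krt25 and Krt27 of type I and from Krt71 of type II. The authors' FPKM (fragments scaled by transcript length and library size, here summed over genes) of the 4 type I sheath keratins was 1445 and 342 in cKO, against 277 and 29.7 in control. For the 4 type II sheath keratins it was 1294 and 310.5 in cKO, against 249.9 and 28.1 in control. The ratio of type I to type II was 1.12 and 1.10 in cKO, against 1.11 and 1.06 in control. For the hair keratins, with 9 type I and 5 type II genes, this ratio was 1.37 and 1.20 in cKO and 1.33 and 1.27 in control. The listed gene that was not analysed, a type II hair keratin, is missing from the type II hair sum. The ratio is thus not that of all hair keratins. The proportion between layers was less even. Type I sheath keratins summed to 2.68 and 1.79 times the type I hair keratins in cKO replicates 2 and 3, and to 3.30 and 1.34 times in control replicates 2 and 3. In both genotypes the library numbered 2 thus had relatively more sheath keratin.

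**Figure D4:**
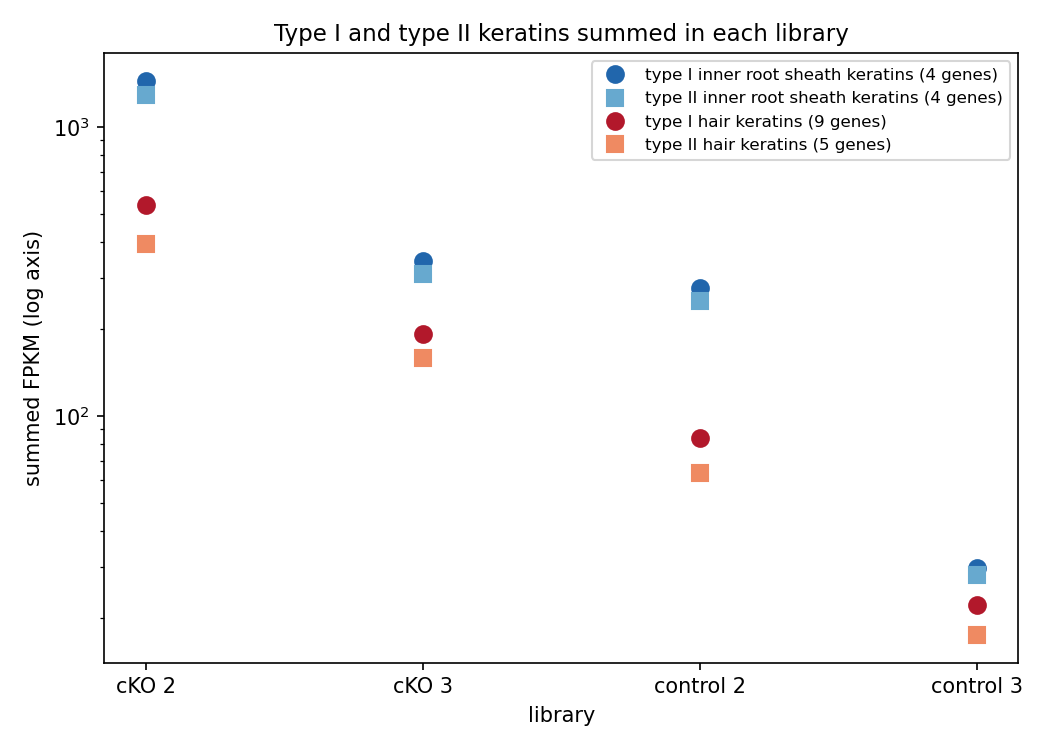
Authors' FPKM summed over type I (circles) and type II (squares) keratins of the inner root sheath (blue) and of the hair shaft (red) in each library, on a log axis. Within the sheath the type I and type II points nearly coincide in every library, from 1445 and 1294 in cKO replicate 2 to 29.7 and 28.1 in control replicate 3.

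By FPKM, the most abundant of the 30 genes in cKO replicate 2 were Krt71 at 1032, Krt25 at 715, Krt27 at 567, Tchh at 539 and Prr9 at 362. The same 5 genes led in cKO replicate 3, at 275, 196, 126, 158 and 63.6 FPKM. In control replicate 2 they also led, with 198, 129, 108, 122 and 68.1 FPKM. In control replicate 3 they had 24.8, 15.1, 11.4, 17.8 and 10.03 FPKM, and there Krt75, at 19.1 FPKM, stood second after Krt71. The cortex keratins Krt83, Krt81 and Krt33a had 141, 114 and 112 FPKM in cKO replicate 2. Krt74, at 2.76 FPKM in that library, was the least abundant.

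Among the proteins that are no keratin, all 7 had both cKO libraries above both control libraries, against 25.1% of all tested genes. Vsig8 encodes a membrane protein with immunoglobulin domains known from the hair and nail. It had 173 and 65.5 CPM in cKO, against 15.5 and 5.68 CPM in control. Its lower cKO library was 4.24 times its higher control library, and its log2 fold change of 3.50 ± 0.73 was the largest of the 30 genes (edgeR quasi-likelihood adjusted p = 0.0988). Genotype took 85.9% of its squared spread.

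Tchh encodes trichohyalin, which hardens the inner root sheath and medulla once it is crosslinked. It had 3163 and 957 CPM in cKO, against 689 and 102 CPM in control, with no overlap (log2 fold change 2.38 ± 1.10). Padi3, the deiminase that prepares trichohyalin for that step, had 120 and 33.5 CPM in cKO, against 26.3 and 2.56 CPM in control. The ratio of cKO replicate 3 to control replicate 2 was 1.39 for Tchh and 1.27 for Padi3.

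S100a3, a calcium-binding protein of the hair cuticle, had a log2 fold change of 2.69 ± 0.88. Of its 50-base words 14.6% occur in a transcript of another gene. Dsg4, the desmosomal cadherin of the shaft that is mutated in lanceolate hair mice, had 2.52 ± 0.98, and the orphan receptor Gprc5d, known from the keratinizing part of mouse follicles, had 2.41 ± 0.98. Prr9, a proline-rich protein of the epidermal differentiation complex, had 432 and 78.4 CPM in cKO, against 78.3 and 11.7 CPM in control. Here cKO replicate 3 and control replicate 2 were level, and the genotypes only just failed to overlap.

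In the authors' deposited table, 23 of the 30 genes had a false discovery rate under 0.05 and were higher in cKO, as did 5.04% of the tested genes. The 7 that did not were Krt26, Krt28, Krt72, Krt73, Krt74, Krt75 and Krt84, which are also the 7 whose genotypes overlapped. The authors' deposited log2 fold changes of these 7 ran from 0.67 for Krt75 to 2.42 for Krt73.

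Keratin-associated proteins, which embed the shaft keratins in a sulphur-rich matrix, lay in the same direction. Of 57 such genes listed, 53 were tested, and 52 had a log2 fold change above 0, against 49.9% of all tested genes, with a median log2 fold change of 2.72. Krtap5-2, Krtap28-13 and Krtap5-5 rose and none fell in the edgeR quasi-likelihood test, where 0.74% of all tested genes rose and 0.35% fell. Replicate 2 exceeded replicate 3 in both genotypes for 49 of the 53, against 34.8% of all tested genes. The median log2 ratio of replicate 2 over replicate 3 was 0.98 in cKO and 2.36 in control. Krtap5-2 had 37.1 and 23.2 CPM in cKO, against 1.37 and 1.85 CPM in control (log2 fold change 4.22 ± 0.37, edgeR quasi-likelihood adjusted p = 0.0428). Unlike most of the family, its replicate 2 did not exceed replicate 3 in control. Reads can be shared within this family. Without either control library the same test called 0 of all genes, so these calls were lost.

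Regulators of the hair follicle, not all of them of the shaft, lay in both directions, 5 higher and 6 lower in cKO. The higher ones were Hoxc13, Foxn1, Msx2, Lef1 and Dlx3, with log2 fold changes from 0.74 for Lef1 to 1.11 for Msx2. The lower ones ran from -1.74 to -0.035. Of 11 genes none passed in edgeR quasi-likelihood, 1 was higher and 3 were lower at an unadjusted p under 0.05, and DESeq2 called 2 lower, the exact test 2 lower and voom 0. Over all tested genes 10.3% were higher and 9.69% lower at that unadjusted p, and DESeq2 called 4.81% and the exact test 4.74% lower. Hoxc13, the homeobox factor that activates hair keratin genes, had 56.8 and 11.8 CPM in cKO, against 24.7 and 8.06 CPM in control, so the number separated its libraries more than the genotype did. Foxn1, the factor mutated in nude mice, had 1.05 ± 0.39 on the log2 scale (edgeR quasi-likelihood adjusted p = 0.248). Foxq1 and Gata3, factors of the medulla and of the inner root sheath, were lower in cKO, at -1.74 ± 0.40 and -1.34 ± 0.41, without passing. The median over the 11 genes was -0.04, and 10 of them were higher in replicate 2 in both genotypes.

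Markers of some other follicle and skin cells differed between the numbers. Over 7 melanocyte markers the summed level was 233 and 29.9 CPM in cKO, against 125 and 28.9 CPM in control. Over 8 proliferation markers it was 904 and 388 CPM in cKO, against 600.0 and 332 CPM in control. All 15 genes were higher in replicate 2 in both genotypes, and no defining marker was at 0. The 6 skeletal muscle markers went the other way, with 1890.0 and 12590.5 CPM in cKO, against 8205 and 12936 CPM in control. All 6 were lower in replicate 2 in both genotypes. Other lists differed between the genotypes. In both cKO libraries all 5 tested sebaceous markers were below either control library, against 27.7% of the genes tested, with sums of 1867 and 1158 CPM in cKO and 4521 and 5441 CPM in control. Of these Scd3, a fatty acid desaturase, fell (log2 fold change -4.88 ± 0.51, edgeR quasi-likelihood adjusted p = 0.0472). All 5 adipocyte markers also lay below, with sums of 331 and 196 CPM in cKO and 389 and 713 CPM in control. The 4 stress keratins had sums of 16736 and 13801 CPM in cKO and 2280 and 1584 CPM in control. Of these Krt17 was the exception, with 1765 and 1100 CPM in cKO, against 1510 and 1236 CPM in control (log2 fold change 0.06 ± 0.33). Krt6a, a keratin of wounded epidermis, rose (log2 fold change 3.88 ± 0.43, edgeR quasi-likelihood adjusted p = 0.0476). Leaving out either control library ended both calls. The part of these cells in the hair keratin values was not tested.

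**Figure D5:**
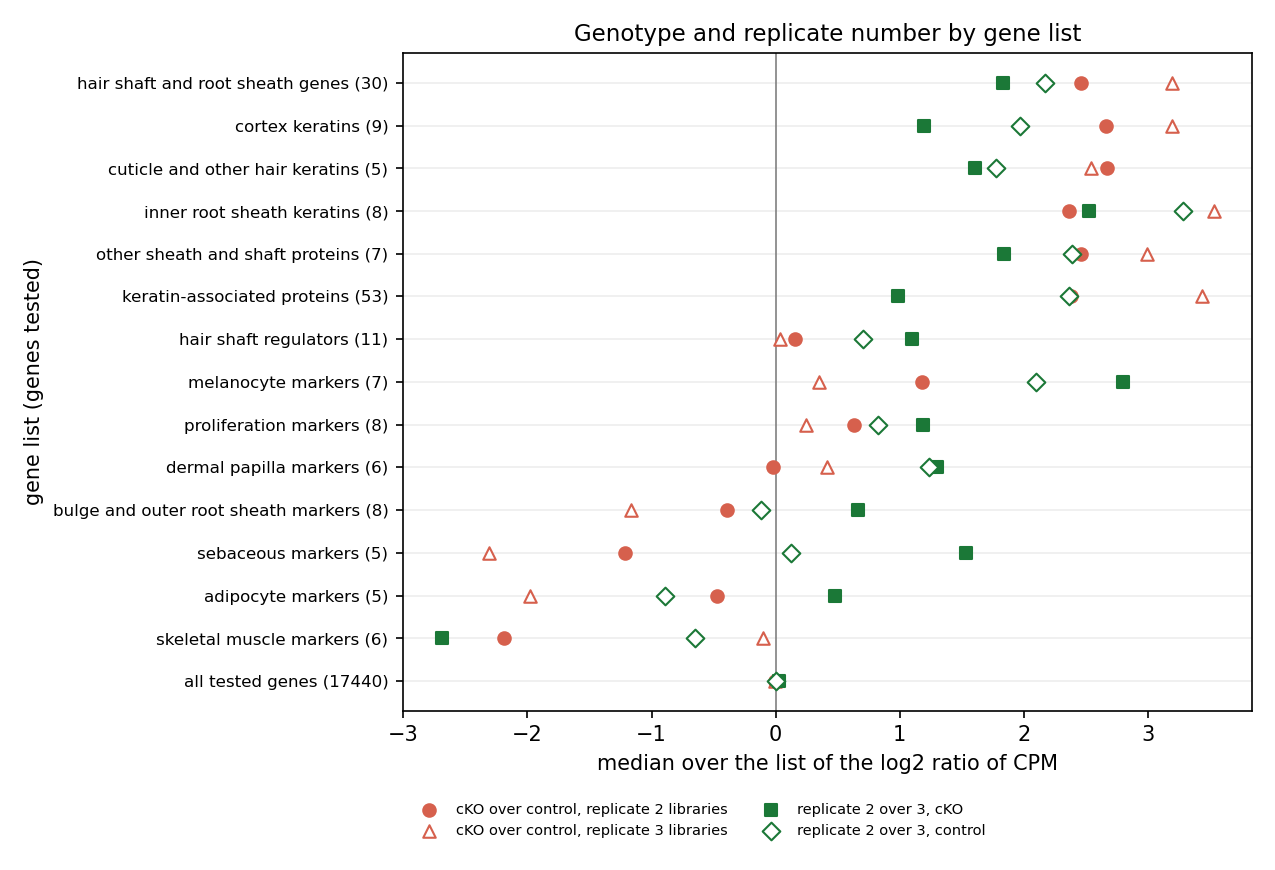
Medians over gene lists of the log2 ratio of CPM, for cKO over control within each replicate number (red) and for replicate 2 over replicate 3 within each genotype (green); the number of genes tested stands beside each list. The cortex, cuticle and inner root sheath keratins and the keratin-associated proteins lie right of 0 for all 4 ratios, while melanocyte and proliferation markers have larger green than red values and skeletal muscle markers lie left of 0.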

How the data were processed

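Whole-skin RNA libraries of 2 cKO and 2 control samples were analysed, grouped and numbered by their titles; columns named Ctr were taken as the floxed group, the only one besides cKO. The deposited table holds estimated counts per gene that the authors made with RSEM, per the submitters' processing notes; they are whole numbers. Its FPKM are the authors' own, named so in the file headers. The log2 fold change, p-value and false discovery rate of the deposited table are the authors', with edgeR named in the submitters' processing notes. Those notes name the build mm8. Not given in the sources used here are the strand setting, the aligner, the annotation and the authors' test; reads of overlapping genes therefore cannot be told apart.

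Counts were filtered with filterByExpr, scaled by TMM and tested with edgeR 4.0.16 (R 4.3.3, limma 3.58.1, DESeq2 1.42.0) by its quasi-likelihood test, with Benjamini-Hochberg adjustment over all 17440 tested genes and a threshold of 0.05. SE is the absolute unshrunken log2 fold change over the square root of F. Log2 ratios between single libraries use a prior count of 2. In simulated data for this comparison, over 17440 genes, the test found 2.0% of 2-fold changes, 55.3% of 4-fold changes, 76.0% of 8-fold changes and 90.0% of 16-fold changes. False ones made up 13.2% of its calls.

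Replicates of a genotype differed beyond sampling noise (mean chi-square over genes 93.6 in cKO and 24.2 in control). Members and lists were chosen with earlier results of these data known. Every member may be named; of the other lists, those with the smallest p, those in small counts, Ppp6c, and, chosen after their values were seen, Hoxc13, Krt5, Krt14 and Krtap5-2.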

Additional observations from a re-analysis of the deposited data

How the results depend on the processing

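The edgeR quasi-likelihood test called 190 genes and 0 of the 30 members. With no filter it called 883 genes and 2 members (Krt33b and Vsig8), DESeq2 called 1886 and 15, and the edgeR exact test 1811 and 12. With the replicate block, which takes the number as a term, it called 1177 genes and 26 members (4.11% of genes were called higher in cKO), the members all higher in cKO and all but Krt74, Krt75, Krt84 and Krt36. The labels do not say that equal numbers pair the libraries; deviations of the replicate 2 libraries from their group means correlated at 0.414 across genes, which are not independent. Leaving out 1 library gave 0 to 1664 genes and 0 to 3 members. The counts were 0 genes without control replicate 2 or control replicate 3, 1664 without cKO replicate 2 and 986 without cKO replicate 3, where Krt32, Krt40 and Vsig8 were called. The members' median log2 fold change ran from 1.38 to 4.36 when 1 library was left out and from 2.46 to 3.19 under the other settings. When 1 library was left out, log2 fold changes ran from -0.070 to 4.47 for Krt84, negative without control replicate 3. They ran from -0.055 to 4.89 for Krt28, from -0.84 to 2.10 for Krt74 and from -0.55 to 1.47 for Krt75, negative without cKO replicate 2. The cause was not tested. With 2 libraries a genotype, and recovery of 4-fold changes incomplete in simulation, a missed threshold does not show that a gene did not differ. Counts of Krt74, Krt84 and Krt36 in control replicate 3 were 14, 10 and 11 reads.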

Other observations

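Markers of the bulge and outer root sheath, the parts of the follicle that persist while it rests, were not higher in cKO. All 8 had a log2 fold change below 0, from -2.75 to -0.078 with a median of -0.42. Like the shaft and sheath genes, 4 of the 8 were higher in replicate 2 in both genotypes, against 34.8% of all tested genes. Of 8 genes none passed in edgeR quasi-likelihood, 2 were lower in cKO at an unadjusted p under 0.05, DESeq2 and the exact test called 2 lower each, and voom called 0. Over all tested genes 9.69% were lower at that unadjusted p, and DESeq2 called 4.81% and the exact test 4.74% lower. Krt15, a keratin of bulge and basal cells, had 553 and 266 CPM in cKO, against 1487 and 2231 CPM in control. Fgf18, a growth factor of the resting follicle, had 1.02 and 1.97 CPM in cKO, against 7.27 and 13.0 CPM in control, with no overlap. Its log2 fold change was -2.75 ± 0.51 (edgeR quasi-likelihood adjusted p = 0.0857).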
